A study of Mus musculus with 2 samples.

Results

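The Ikaros family comprises 5 zinc finger transcription factor genes, Ikzf1 (encoding Ikaros), Ikzf2 (Helios), Ikzf3 (Aiolos), Ikzf4 (Eos) and Ikzf5 (Pegasus). The rows of the Myb ChIP-Seq peak list that belong to them were those whose summit, the base of highest read pileup, lay in the body of 1 of these genes or within 50 kb of it in the GENCODE vM21 annotation of mm10. By this rule 47 of 25793 peaks belonged to the family. Ikzf2 had 20, Ikzf1 had 17, Ikzf3 had 5, Ikzf4 had 4 and Ikzf5 had 1. Ikzf1 and Ikzf2 thus held 37 of the 47 peaks (78.7%).

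The peaks came from WT (wild-type) mouse bone marrow cells depleted of lineage-positive cells (Lin- cells), a mixed fraction enriched for stem and progenitor cells of all blood lineages. Chromatin was precipitated with an antibody against Myb or with normal rabbit IgG, and library adapters were inserted on the beads by Tn5 transposase. There was 1 library per antibody, and the IgG library served as the background for calling peaks. Neither age, sex nor strain stood in the labels of these libraries, and no value below has a replicate, so no test between genes was made.

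Ikaros proteins bind DNA through N-terminal zinc fingers and pair with one another through C-terminal ones, and they act in large part by bringing the NuRD chromatin remodelling and deacetylase complex to their targets. Ikaros is needed for lymphoid development and also acts in stem and erythroid cells, Aiolos acts in B cell maturation, and Helios and Eos are best known from regulatory T cells. Pegasus is the most divergent relative. Myb is a transcription factor that blood stem and progenitor cells need, and the letters it prefers are CAACGG or CAACTG or TAACGG or TAACTG.

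The DNA under the summits is shown first for the peaks the counts turn on: the strongest Ikzf1 peak, the member window with the most Myb matches, the windows that held Myb and GATA letters side by side, the strongest Ikzf2 peak and the Ikzf2 start, and 1 window each of Ikzf3, Ikzf4 and Ikzf5. Each run covers 101 bases centred on the summit and was read 5′ to 3′ from the plus strand of the mm10 reference genome. Capitals mark a Myb form (CAACGG or CAACTG or TAACGG or TAACTG) or a GATA form (AGATAA or TGATAA) on either strand.
Ikzf1 intron 3, strongest peak, chr11:11729342-11729442, plus strand: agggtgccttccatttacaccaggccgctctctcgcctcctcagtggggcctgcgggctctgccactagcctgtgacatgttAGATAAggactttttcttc
Ikzf1 intron 3, 3 Myb matches, chr11:11716681-11716781, plus strand: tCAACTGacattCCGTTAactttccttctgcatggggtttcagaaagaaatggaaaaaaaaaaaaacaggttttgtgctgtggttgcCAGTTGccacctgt
Ikzf1 intron 1, chr11:11691045-11691145, plus strand: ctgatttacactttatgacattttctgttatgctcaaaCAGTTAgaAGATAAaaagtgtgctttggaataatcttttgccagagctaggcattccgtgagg
Ikzf2 start, chr1:69687072-69687172, plus strand: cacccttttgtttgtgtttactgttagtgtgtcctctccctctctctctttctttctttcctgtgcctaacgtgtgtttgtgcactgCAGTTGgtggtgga
Ikzf2 intron 3, chr1:69630633-69630733, plus strand: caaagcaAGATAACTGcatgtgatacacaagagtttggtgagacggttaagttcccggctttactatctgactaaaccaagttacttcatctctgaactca
Ikzf2 downstream, intergenic, chr1:69507743-69507843, plus strand: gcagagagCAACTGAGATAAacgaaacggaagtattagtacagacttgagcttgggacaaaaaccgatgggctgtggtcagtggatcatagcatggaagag
Ikzf2 downstream, strongest peak, chr1:69496175-69496275, plus strand: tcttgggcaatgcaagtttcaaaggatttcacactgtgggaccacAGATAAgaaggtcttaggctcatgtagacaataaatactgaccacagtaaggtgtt
Ikzf3 intron 7, chr11:98476653-98476753, plus strand: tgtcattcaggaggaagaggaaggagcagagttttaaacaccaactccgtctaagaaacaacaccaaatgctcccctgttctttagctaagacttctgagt
Ikzf4 upstream, in Rab5b, chr10:128692050-128692150, plus strand: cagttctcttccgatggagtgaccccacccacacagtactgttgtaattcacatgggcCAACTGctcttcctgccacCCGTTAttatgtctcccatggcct
Ikzf5 intron 1, chr7:131409789-131409889, plus strand: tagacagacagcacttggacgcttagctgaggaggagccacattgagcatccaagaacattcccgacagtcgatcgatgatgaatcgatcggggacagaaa
The windows differed in what they held. The strongest Ikzf1 and Ikzf2 windows had a GATA form and no Myb form, the Ikzf1 window 31.7 kb from the gene start had 3 Myb forms, and the windows in Ikzf3 and Ikzf5 had neither. The Ikzf4 window printed was the only one of that gene with a Myb form. The window of the strongest Ikzf4 peak, near the Rps26 start, had neither form and is not printed.

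All 5 family members had at least 1 summit in their window (the gene body and 50 kb to each side), as did 68.7% of the 21938 protein-coding genes of the nuclear genome. Ikzf1 and Ikzf2 had at least 10, a number that 7.62% of all protein-coding genes reached. The median gene had 2 summits (quartiles 0 and 5). With 17 summits Ikzf1 stood above 98.7% of genes, and 288 genes had as many or more. With 20 summits Ikzf2 stood above 99.5% of genes, and 120 genes had as many or more. Ikzf3 with 5 stood above 71.9%, Ikzf4 with 4 above 64.4% and Ikzf5 with 1 above 31.3%, so these 3 lay in the bulk of the distribution. The order of the leading pair depended on the peak threshold: among peaks with a −log10 q of at least 5 Ikzf1 had 10 and Ikzf2 6. The order of Ikzf3 and Ikzf4 depended on the window: within 100 kb Ikzf4 had 12 and Ikzf3 6.

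**Figure D1:**
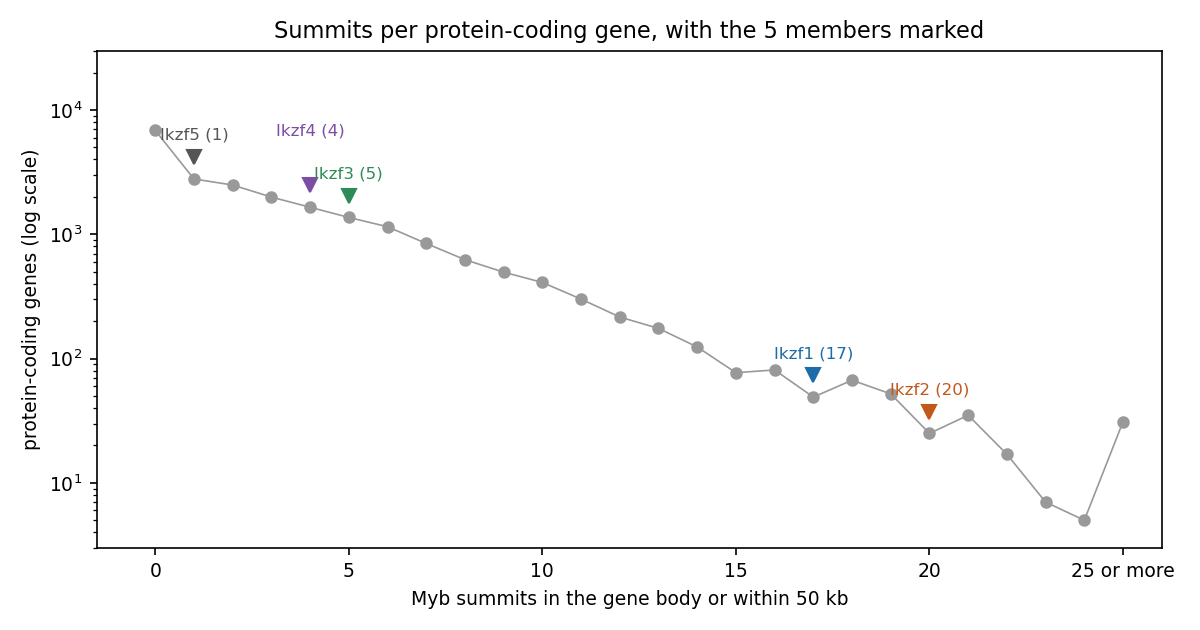
Number of protein-coding genes (vertical axis, log scale) with each number of Myb summits in the gene body or within 50 kb (horizontal axis; the last point gathers genes with 25 or more, which reach 181). Triangles mark the 5 family members, with Ikzf1 at 17 and Ikzf2 at 20 in the sparse upper tail and Ikzf3, Ikzf4 and Ikzf5 at 5, 4 and 1.

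The windows were not equally long. Ikzf2 spans 156 kb, Ikzf1 87.9 kb, Ikzf3 81.1 kb, Ikzf5 21.9 kb and Ikzf4 15.1 kb, against a median of 17.4 kb over all protein-coding genes. Per 100 kb of window Ikzf1 had 9.05 summits, Ikzf2 7.81, Ikzf4 3.47, Ikzf3 2.76 and Ikzf5 0.82, against a median of 1.52. On this scale Ikzf1 passed Ikzf2 and lay above 95.4% of genes, while Ikzf2 lay above 93.0%. The gap between Ikzf1 and Ikzf3, which are almost equally long, was thus 17 against 5 summits in all and 12 against 1 inside the gene.

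At the edge of the 50 kb rule, the outermost member summit lay 46.1 kb before the Ikzf4 start (3.77-fold enrichment) and the first one left out lay 50.3 kb from Ikzf4 (5.25-fold). The first summits left out lay 62.7 kb from Ikzf1, 71.3 kb from Ikzf3, 145 kb from Ikzf5 and 1413 kb from Ikzf2. The Ikzf2 peaks therefore stood as an isolated group, with the nearest other summit farther away than at any of the other 4 genes.

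Inside the gene body the family had 27 summits: 13 in Ikzf2, 12 in Ikzf1, 1 in Ikzf3, 1 in Ikzf5 and 0 in Ikzf4. A summit inside the body was found in 35.4% of all protein-coding genes. A summit within 3 kb of a start site of the gene itself was found in 39.9% of protein-coding genes, and in the family at Ikzf2 (6 summits), Ikzf1 (2), Ikzf3 (1) and Ikzf5 (1) but not at Ikzf4. At least 6 such summits were listed for 108 of 21938 genes (0.492%), and Ikzf2 has 7 annotated start sites against a median of 3. Ikzf4 and Ikzf5 also have 7 start sites each, with 0 and 1 such summits.

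**Figure D2:**
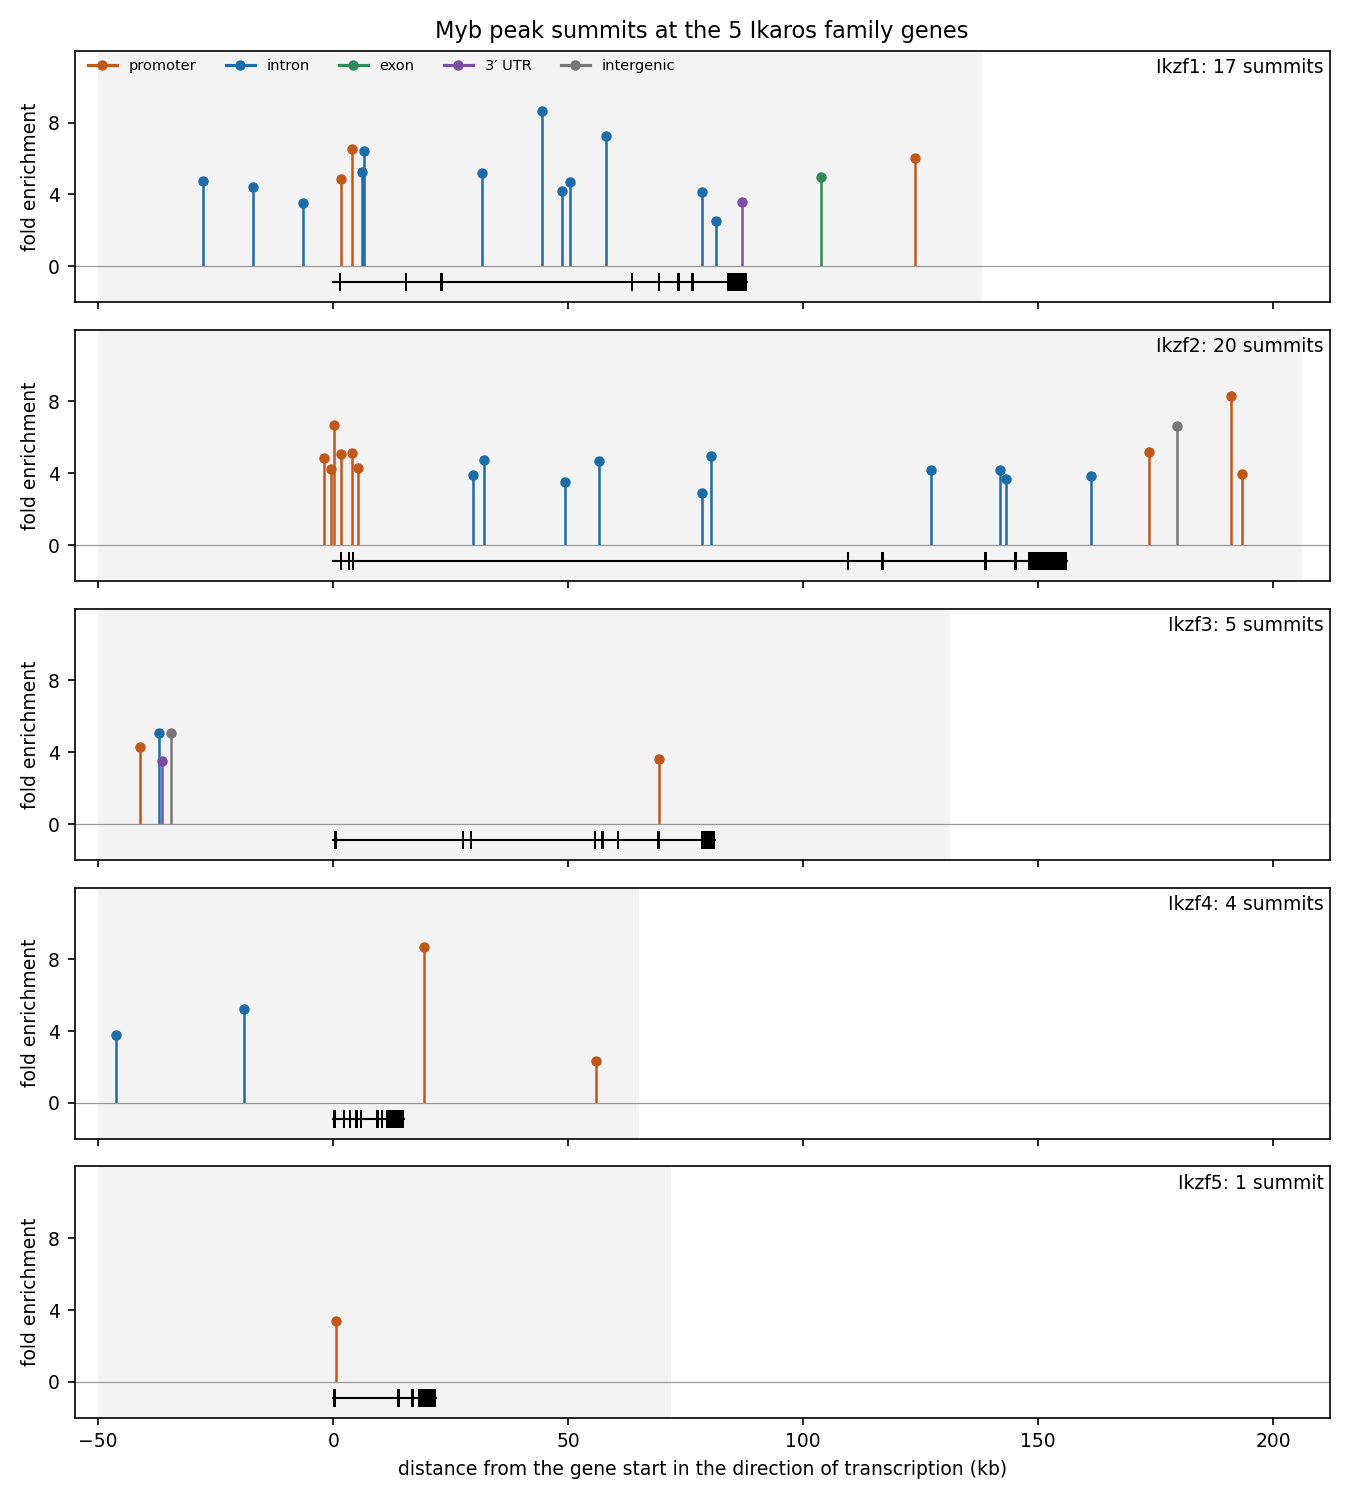
Each vertical line is a Myb summit, placed by its distance in kb from the gene start in the direction of transcription and as high as its fold enrichment, with colours for the annotation class; the black line and boxes are the gene and the exons of the numbered transcript, and grey is the window. Ikzf1 and Ikzf2 carry 12 and 13 summits inside the gene with long empty stretches between them, Ikzf3 has 1 inside, Ikzf4 has none inside and Ikzf5 has 1 next to its start.

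Positions were numbered on 1 principal transcript per gene. Of the 27 inside summits 25 fell in introns of that transcript, 6 of them in intron 1 and 19 in later introns. The remaining pair was 1 summit in the last exon of Ikzf1 and 1 at the Ikzf2 start, upstream of the numbered transcript. Only 9 of the 31 numbered introns held a summit. Introns with a summit had a median length of 13.5 kb and introns without one 2.73 kb, and 5 of the 7 introns longer than 10 kb held at least 1. The 2 exceptions both belonged to Ikzf3, whose intron 1 (27.0 kb) and intron 3 (26.3 kb) held 0. A longer intron has more room for a summit. Per 10 kb the introns with a summit ranged from 0.460 (Ikzf2 intron 5) to 6.57 (Ikzf2 intron 1, with 1 summit). The longest, intron 3 of Ikzf2, had 0.761 per 10 kb, and intron 3 of Ikzf1 had 1.24. No such values over the introns of all genes are given, so these numbers are a description.

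**Figure D3:**
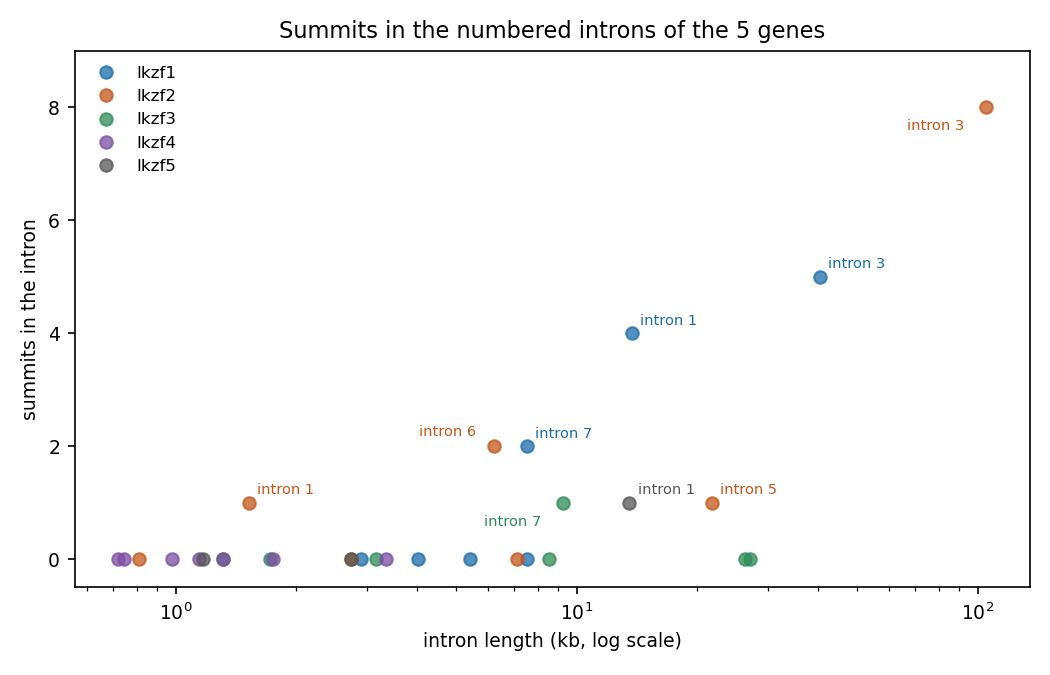
Number of Myb summits (vertical axis) against intron length in kb (horizontal axis, log scale) for the 31 introns of the 5 numbered transcripts, each a point coloured by gene; introns with a summit are labelled. The long introns 3 of Ikzf2 (8 summits) and Ikzf1 (5) stand at the upper right, and the pair of long Ikzf3 introns at the lower right hold none.

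When each of the 25793 summits was put in 1 annotation class, in the order promoter (within 3 kb of any annotated start site), UTR, exon, intron and intergenic, 25 of the 47 member summits were intronic (53.2%, exact binomial 95% interval 38.1 to 67.9%) against 23.9% of all summits. Promoter summits were 17 of 47 (36.2%, 22.7 to 51.5%) against 57.6% of all. Near a start of the member itself lay 6 of the 17 at Ikzf2, 2 at Ikzf1 and 1 each at Ikzf3 and Ikzf5. The other promoter summits lay near starts of other genes. Of the 5 summits in neither class 2 were intergenic, 2 lay in a 3′ UTR and 1 in an exon. Among summits inside a gene the intronic class took 18 of 27 (66.7%, 46.0 to 83.5%) in the family and 34.8% of 16131 over all protein-coding genes. These shares are a description: the rule took summits in or near genes with long introns and left out remote ones, so it fixed the class in part. The intervals cover counting error alone, and neighbouring summits of 1 gene are not independent.

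Ikzf1, on the plus strand of chromosome 11 (mm10 chr11:11685003-11772926), had 4 summits in intron 1, 5 in intron 3, 2 in intron 7 and 1 in the 3′ UTR of exon 8. Introns 2, 4, 5 and 6 held none. Intron 3, which is 40.4 kb long, held the strongest peak of the gene, chr11:11728146-11730704. Its fold enrichment over the IgG background was 8.65, from 45 reads at the summit (exact Poisson 95% interval 32.8 to 60.2), with a −log10 q of 20.1. It spanned 2559 bp and held 6 Myb forms along its length, though none within 50 bp of the summit. A wide peak has more room for such letters, and the number expected for this width was not computed. The second peak, also in intron 3, was chr11:11741680-11743150, with an enrichment of 7.27 from 24 reads (15.4 to 35.7).

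The third peak of Ikzf1, chr11:11687546-11690150, reached 6.51 from 23 reads (14.6 to 34.5) in intron 1. At 2605 bp it was the widest of the 47, and its summit lay 2.48 kb from the nearest annotated Ikzf1 start in GENCODE. The summit nearest to a start of the gene was 166 bp away, in chr11:11685802-11687396, with an enrichment of 4.87 from 24 reads. A pair of further intron 1 summits stood 553 bp apart, at 6.09 kb and 6.64 kb from the gene start, with 5.26 and 6.41. The 4 summits of intron 1 were thus crowded into its 5′ part, and 25.1 kb without a summit followed before the first one in intron 3.

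RefSeq lists 2 Ikzf1 start sites among its promoter windows, each running from 250 bases before to 50 bases after a start. The window of the first, at 11685925, shared 173 of 300 bases with the peak at the 5′ end, and that of the second, at 11690177, shared 224 with the widest peak. The second window, GRCm38.p6 (the assembly of mm10) chr11:11689927-11690226 on the plus strand, is shown because that peak covers most of it.
Ikzf1 second RefSeq promoter: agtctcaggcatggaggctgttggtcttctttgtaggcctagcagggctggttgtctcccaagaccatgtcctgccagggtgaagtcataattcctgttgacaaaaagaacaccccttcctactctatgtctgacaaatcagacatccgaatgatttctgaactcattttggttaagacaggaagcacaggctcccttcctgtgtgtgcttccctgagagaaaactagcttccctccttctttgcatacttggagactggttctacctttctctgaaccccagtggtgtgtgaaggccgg
Neither Ikzf1 window held a Myb or GATA form, so no letter is in capitals. A Myb form was in 28.3% of the 32851 RefSeq promoter windows.

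Upstream of Ikzf1 3 summits lay 6.36, 17.1 and 27.8 kb before the gene, with enrichments of 3.53, 4.39 and 4.76. All 3 fell in introns of Gm11999, a noncoding gene on the opposite strand that begins next to Ikzf1. Downstream, 1 summit in an exon of Fignl1, a recombination ATPase gene, had 4.95, and 1 at the Fignl1 start had 6.03 from 31 reads (21.1 to 44.0). Of the 17 Ikzf1 summits 12 had an Ikzf1 start as their nearest protein-coding start and 5 that of Fignl1. Those 5 included the 3 most 3′ summits of the Ikzf1 body, so nearness to a start did not follow gene membership there.

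Ikzf2, on the minus strand of chromosome 1 (chr1:69531214-69687245), had a different layout. Around its start 6 summits stood within 7.15 kb, from 1.90 kb before the gene start to 5.25 kb inside, with enrichments between 4.27 and 6.70. The highest of them, chr1:69686254-69687273, had 21 reads (13 to 32.1) and its summit lay 18 bp from an annotated Ikzf2 start. Next came intron 3, which is 105 kb long and held 8 summits, 2 of them in the start group. The other 6 lay in 3 loose pairs at 29.8 and 32.1 kb, 49.2 and 56.6 kb, and 78.4 and 80.3 kb from the gene start, with enrichments between 2.90 and 4.97. A stretch of 47.0 kb without a summit followed, the longest in Ikzf2, before 1 summit in intron 5 (4.18) and 2 in intron 6 (4.18 and 3.70).

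The strongest Ikzf2 peak was not in the gene. It was chr1:69495746-69496910, 35.0 kb beyond the 3′ end, with an enrichment of 8.33 from 42 reads (30.3 to 56.8) and a −log10 q of 18.5. Its summit lay 2.44 kb from the start of the noncoding gene Gm29113. The third peak by enrichment, chr1:69507459-69508004, was 23.4 kb beyond the gene end and intergenic, with 6.65 from 20 reads (12.2 to 30.9). The other downstream summits had 3.84, 5.21 and 3.99, and the one with 5.21 lay 187 bp from the start of Gm29114, a gene antisense to the 3′ part of Ikzf2. No other protein-coding gene touches the Ikzf2 window, and an Ikzf2 start was the nearest protein-coding start for all 20 summits.

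Ikzf1 and Ikzf2 peaks were alike in width, with medians of 602 and 609 bp, and in the range of enrichment, 2.51 to 8.65 (median 4.87) and 2.90 to 8.33 (median 4.49). The median reads per summit were 20 and 15. In Ikzf1 9 of 17 summits sat in 3 clusters whose neighbours were at most 5 kb apart, and in Ikzf2 14 of 20 sat in 5 such clusters, the largest being the 6 at its start. Over the family 28 of 47 summits (59.6%) had another within 5 kb, close to the 55.5% of all summits.

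Ikzf3, on the minus strand of chromosome 11 (chr11:98464902-98546031), had 1 inside summit, in intron 7, the last. That peak, chr11:98476566-98476873, had an enrichment of 3.64 from 11 reads (5.49 to 19.7) and lay 700 bp from the start of a short internal noncoding transcript of Ikzf3, which put it in the promoter class. The annotated 5′ start of Ikzf3 had none, and 104 kb without a summit separated the intron 7 summit from the next one upstream; the nearest in either direction, outside the window, was 83.1 kb away. The other 4 lay 34.4 to 41.2 kb before the gene. These had enrichments of 5.07 (22 reads), 5.06 (25 reads), 4.29 (21 reads) and 3.52 (17 reads). All 4 were nearest to Ormdl3, a regulator of sphingolipid synthesis, 3 of them lay inside it, and the outermost was 169 bp from its start.

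Ikzf4, on the minus strand of chromosome 10 (chr10:128630843-128645991), had 0 summits in its body and 4 in the flanks. The strongest, chr10:128626468-128627151, had the highest enrichment of all 47, 8.67 from 35 reads (24.4 to 48.7), and lay 4.23 kb beyond the Ikzf4 end and 134 bp from the start of Rps26, a ribosomal protein gene. The second, 18.9 kb before Ikzf4 in the noncoding gene Gm49782, had 5.26 from 17 reads (9.90 to 27.2). The third, in an intron of Rab5b, an endosomal GTPase gene, had 3.77 from 17 reads. The fourth, 526 bp from the start of the receptor gene Erbb3, had 2.37 from 11 reads and a −log10 q of 0.286. No Ikzf4 summit had the Ikzf4 start as its nearest protein-coding start, and the same held for Ikzf3.

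Ikzf5, on the minus strand of chromosome 7 (chr7:131388652-131410521), had 1 peak, chr7:131409779-131410019, in intron 1 and 539 bp from an Ikzf5 start. Its enrichment was 3.41 from 12 reads (6.20 to 21.0), and at 241 bp it was the narrowest of the 47. The summit also lies in the span that GENCODE gives Fgfr2, whose annotation extends over Ikzf5. The next summit in any direction was 146 kb away.

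Peak strength did not set the family apart. The median fold enrichment of the 47 peaks was 4.69 (quartiles 3.88 and 5.19) and that of all 25793 peaks 4.51 (3.73 and 5.95). The median number of reads at the summit was 18 in both. Enrichment above 8 was seen in 3 member peaks, 1 each at Ikzf1, Ikzf2 and Ikzf4, and in 9.89% of all peaks, of which the highest reached 30.9. The Poisson intervals for the reads of those 3 peaks overlapped one another, so their order by reads is not resolved at this depth. The intervals leave out the error of the background, so they do not measure the order by enrichment. All 3 intervals lay above the upper bound for the Ikzf5 peak, 21.0 reads. The 3 peaks were picked for their enrichment, which is computed from the same reads. The gap to the Ikzf5 peak is therefore no comparison between genes.

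**Figure D4:**
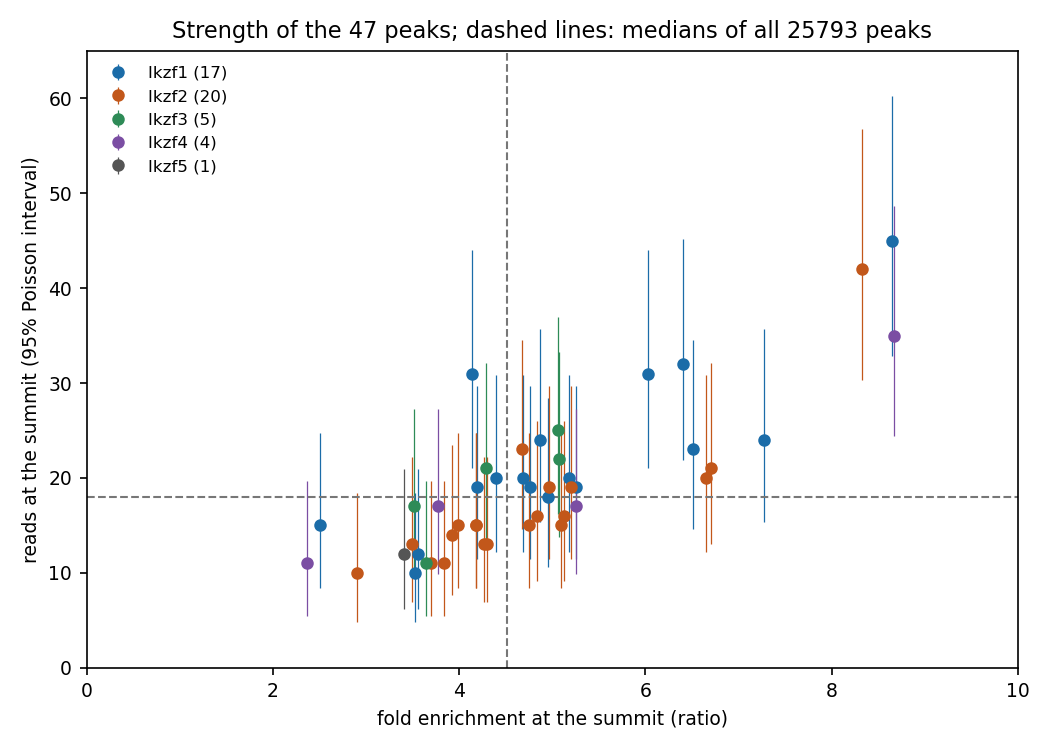
Reads at the summit with exact Poisson 95% intervals (vertical axis) against fold enrichment (horizontal axis) for the 47 peaks, coloured by gene; dashed lines are the medians of all peaks, 18 reads and 4.51. Most points lie near the crossing of the lines, and 1 peak each of Ikzf1, Ikzf2 and Ikzf4 lies above 8 with 45, 42 and 35 reads.

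The methods give a q threshold of 0.05 for the calls from pseudo-replicates, but a q-value above 0.05 was listed for 3 member peaks and for 7.24% of all peaks. These were the Ikzf1 peak at 81.4 kb in intron 7 (−log10 q 0.793), the Ikzf2 peak at 78.4 kb in intron 3 (0.728) and the Erbb3 peak beside Ikzf4 (0.286). Each of these had the lowest enrichment of its gene.

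A Myb form lay within 50 bp of 10 of the 47 summits (21.3%, exact binomial 95% interval 10.7 to 35.7%), in 14.9% of windows of the same length 500 bp to each side, and at 16.7% of all summits. The interval takes in the share over all summits. Ikzf2 had 6 of the 10, Ikzf1 3 and Ikzf4 1. Over the whole width of the peaks 31 of 47 held at least 1 Myb form (66.0%, 50.7 to 79.1%), against 58.6% of all peaks. Apart from the Ikzf1 window in intron 3 with 3 forms, the Ikzf4 window in Rab5b was the only one with more than 1.

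A GATA form lay within 50 bp of 14 summits (29.8%, 17.3 to 44.9%), in 10.6% of the flanking windows and at 13.8% of all summits. It was found at 8 Ikzf2, 5 Ikzf1 and 1 Ikzf3 summits. Neighbouring summits of a gene are not independent, so the interval is no test. The median GC share was lower in the member windows than at all summits (43.6% against 48.5%). Its bearing on matches to the AT-rich GATA letters was not tested. Away from promoters the share was 11 of 30 (36.7%, 19.9 to 56.1%) in the family and 18.9% of 10948 summits overall. In promoters it was 3 of 17 (17.6%, 3.80 to 43.4%) and 10.1% of 14845. All 3 lay beyond the Ikzf2 end, near starts of Gm29114 or Gm29113, and none lay near a start of a family member. GATA factors are zinc finger regulators of stem, erythroid and megakaryocytic cells, and AGATAA or TGATAA are their usual letters.

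Myb and GATA forms occurred together at 4 member summits (8.51%, 2.37 to 20.4%) and at 2.82% of all summits. In the Ikzf1 intron 1 window printed above they were separated by 2 bases, in the intergenic Ikzf2 window by 0, and in the Ikzf2 intron 3 window they shared 3 bases, so that they are not independent matches there. In the fourth window, at the Gm29114 start beyond Ikzf2, 9 bases lay between them. Among the 6 motifs searched 3 pairs of matches of different kinds overlapped in the member windows.

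**Figure D5:**
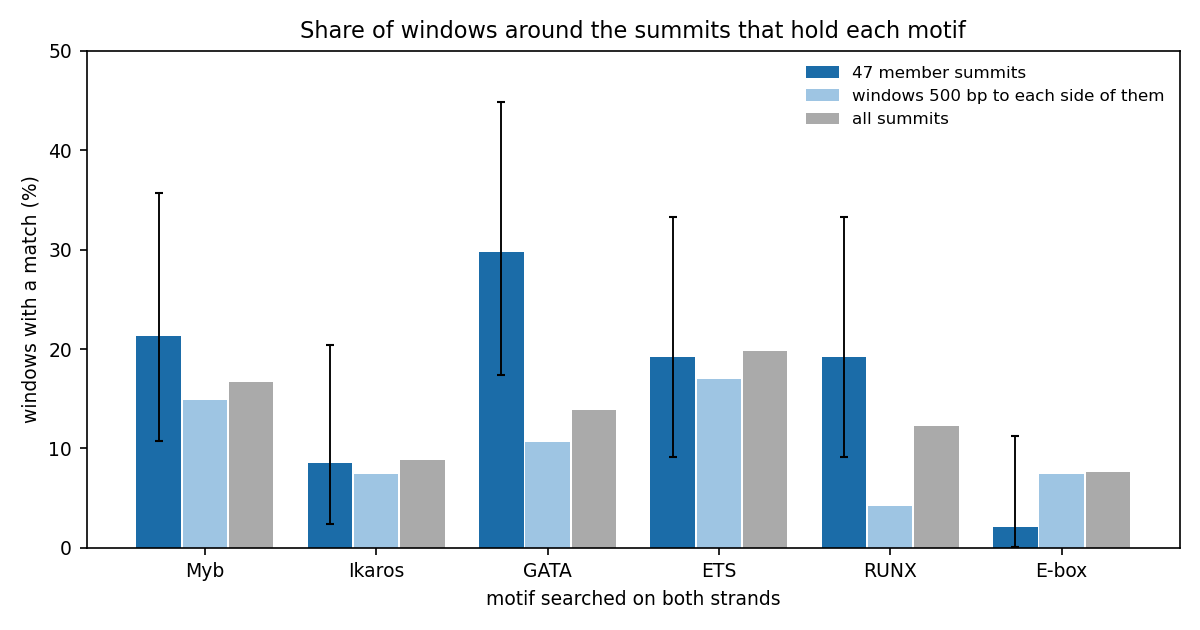
Share of 101-bp windows (vertical axis, percent) that held each of 6 motifs (horizontal axis), for the 47 member summits with exact binomial 95% intervals, for the windows 500 bp to each side of them, and for all 25793 summits. The GATA bar of the member summits, 29.8%, is the tallest. Its interval lies above the 13.8% of all summits, whereas the Myb interval includes 16.7%. The intervals cover counting error alone and are no test, because neighbouring summits of a gene are not independent.

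The other motifs were the letters TGTGGT or TGCGGT (RUNX), AGGAAG or CCGGAA (ETS), TGGGAA (the Ikaros core) and CAGATG (E-box). RUNX letters lay at 9 member summits (19.1%, 9.15 to 33.3%), 5 at Ikzf1 and 4 at Ikzf2, against 4.26% of flanks and 12.2% of all summits. ETS letters also lay at 9 summits (19.1%), against 17.0% of flanks and 19.8% of all. The E-box letters lay at 1 summit (2.13%), in Ikzf2, against 7.66% of all summits. The letters of the Ikaros core itself lay at 4 (8.51%), 2 in Ikzf1 and 1 each at Ikzf2 and Ikzf4, against 8.80% of all.

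The partners of Ikaros proteins were counted by the same rule. The list of 22 genes covered the NuRD complex and the Sin3, CtBP and Brg1 corepressor or remodelling subunits. It also covered the cereblon ligase, through which lenalidomide removes Ikaros and Aiolos in human cells. All 22 had at least 1 summit in the window, against 68.7% of protein-coding genes, 18 had at least 1 in the body, against 35.4%, and 19 at least 1 within 3 kb of a start of their own, against 39.9%. The median was 5.5 summits, with a range of 1 to 16. At least 10 were found at 4 of the 22, against 7.62% of protein-coding genes. Mta2, a NuRD subunit gene, had 16, and Chd3, which encodes a NuRD remodelling ATPase, and Mbd2, which encodes a methyl-CpG binding subunit, had 12 each. Ikzf2 with 20 and Ikzf1 with 17 thus had more summits than any of the 22, while per 100 kb Mta2 (14.5), Chd3 (9.51) and Mbd3 (9.34) were above Ikzf1 (9.05). Most summits of these partners lay in the flanks: inside the gene Mta2 and Mbd2 had 2 each, and Chd3 and Mbd3 1 each. Ikzf2 had 13 inside and Ikzf1 12. Whether the flank summits of the partners belong to neighbouring genes was not tested.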

How the data were processed

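Myb and IgG ChIP-Seq libraries of WT mouse Lin- bone marrow cells were sequenced single-end, 1 library each. Per the study's methods and the submitters' processing notes, the authors ran adapter trimming (cutadapt 1.15), alignment to the mm10 genome (BWA 0.7.13) and duplicate removal (Picard), and then filters on mapping quality and blacklisted regions. Peaks were called with MACS2 2.1.1.20160309 against IgG and kept where calls from pseudo-replicates overlapped. The deposited values are the fold enrichment at the summit, a ratio of Myb to local background, and the −log10 p and −log10 q values of each peak. The list has no replicate and no read totals.

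The members and lists were chosen with earlier results of these data known. Summits were assigned with GENCODE vM21 in Python 3.11.15 with pandas 2.3.3. All 5 members were named, with the 3 strongest peaks of each and those nearest to a start, and of the partners the 3 with the most summits. Introns were numbered on the principal transcript with the longest coding sequence. Reads at each summit were recovered from the enrichment and p-value; 100% of peaks gave a whole number within 0.0001 on the −log10 p scale, and 0.062% gave more than 1. The recovery was tested on simulated data. Intervals (exact Poisson for reads, exact binomial for shares, SciPy 1.17.1) cover counting error only. With 1 Myb library no test was run. Alternatives varied the q threshold, the window, the assignment of peaks, the promoter class and the motif. The IgG library has no peak list of its own used here.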

Additional observations from a re-analysis of the deposited data

How the results depend on the processing

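Of 48 alternative values 29 stayed near the value reported, that is within 1.5 times for counts, within the 95% interval for shares and within the quartiles for the median enrichment. With peaks of −log10 q of at least 5 alone, the counts were 10 for Ikzf1, 6 for Ikzf2, 2 for Ikzf3, 2 for Ikzf4 and 0 for Ikzf5, which also had 0 at a −log10 q of at least 2, and the median enrichment rose to 5.26. Ikzf1 thereby stood above Ikzf2, reversing their order. In the gene body alone Ikzf2 had 13, Ikzf3 1 and Ikzf4 0. Within 10 kb Ikzf3 had 1 and Ikzf4 1, and within 100 kb Ikzf4 had 12 against 6 for Ikzf3, which turned their order. Counting only summits whose nearest protein-coding start was the member's left 0 for Ikzf3 and 0 for Ikzf4. The intronic share inside the genes became 85.2% without a promoter class. No share over all protein-coding genes is given at that setting, so whether the contrast with them held was not tested. The Myb share was 8.51% within 25 bp (all summits 8.68%), 42.6% within 100 bp (30.0%) and 44.7% with the shorter letters AACNG (54.3%). The exact binomial intervals, 2.37 to 20.4%, 28.3 to 57.8% and 30.2 to 59.9%, each took in the share over all summits.

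No paired analysis was possible because there was 1 Myb library and no test. Library depth could not be read from the peak list, and summits of 10 to 45 reads carry wide counting intervals. The counts of Ikzf3, Ikzf4 and Ikzf5 rest on 5, 4 and 1 summits. Which gene a distal peak acts on was not tested.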

Other observations

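The median GC share of the 101 bases was 43.6% (quartiles 37.6 and 51.0%) at the 47 member summits and 48.5% (41.6 and 56.4%) at all summits, and the median number of CpG dinucleotides was 1 against 2. The quartile ranges overlap. Of the 6 motif kinds exactly 2 occurred at 11 member summits (23.4%, against 14.6% of all) and 3 at 2 summits (4.26%, against 3.12%). None of the 6 was found at 15 member summits (31.9%) and at 43.1% of all.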
